A study of Mus musculus with 62 samples.

Results

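Itgax, Itgal, Itgb2, Itgav, Itgb5, Itga6, Itgb1, Itga4, Itga5 and Itgb3 encode integrin subunits, and they are described here over all groups of a mouse RNA-seq study of CD11b+ cells. The 10 genes were chosen by symbol from the 53801 gene identifiers of the count table, and all 10 passed the filter on low counts with 19865 genes in all. The 62 libraries fell into 16 groups of 3 to 5 by genotype, age and a tag in the titles. WT mice were wild type, and NLRP3 mice lacked Nlrp3 (NLRP3-/-), the sensor of the NLRP3 inflammasome. APPPS1 mice carried the APP/PS1 transgenes, which are used as a model of the amyloid plaques of Alzheimer's disease, and APPPS1_NLRP3 mice combined both changes (APP/PS1.NLRP3-/-). Ages were 4, 6 and 12 months, written 4m, 6m and 12m. A further 12-month set of every genotype had the tag Mxo4, which the labels do not spell out, and it was kept apart from the untagged set. The series title calls the cells microglia. The promoter of the transgenes, the tissue and the sorting steps are not given in the sources used here. The labels do not say whether libraries came from separate animals, so the p-values cover just the spread among these samples, which may be technical. Replicate numbers run through the whole study, so a number names 1 library.

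Integrins are cell surface receptors made of an α and a β subunit, and they bind matrix proteins or ligands on other cells and connect them to the actin cytoskeleton. The β2 subunit, encoded by Itgb2, is typical of leukocytes and pairs with the α subunits CD11a (Itgal), CD11b (Itgam), CD11c (Itgax) and CD11d (Itgad). CD11b marks microglia and other myeloid cells and was the marker of the cells here, whereas CD11c is known from dendritic cells and from microglia close to amyloid plaques. The αv subunit (Itgav) pairs with β1, β3 or β5, among others. Its receptors bind proteins with an RGD sequence, and some αv receptors can release active TGF-β, a factor that maintains the microglial state. The β1 subunit (Itgb1) pairs with α4, α5 and α6, among others, which give receptors for VCAM1 and fibronectin, for fibronectin, and for laminin.

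Promoter windows of members are shown because the levels of their genes lay at opposite ends: Itgax varied over a wide range between groups, and Itgb5 was the most abundant member and varied little. Itga5, another member that differed with the transgenes, is shown beside them. Each window holds the 250 bases before the RefSeq start of transcription in GRCm38.p6, 5′ to 3′ on the strand of the gene. Capitals mark matches, on either strand, to GAGGAA (PU.1-type), GGAAGT (Ets-type), TGANTCA (AP-1-type) or CACGTG (E-box). The Itgax window is chr7:128129300-128129549 on the + strand, that of Itga5 is chr15:103366792-103367041 on the − strand, and that of Itgb5 is chr16:33829415-33829664 on the + strand.

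Itgax: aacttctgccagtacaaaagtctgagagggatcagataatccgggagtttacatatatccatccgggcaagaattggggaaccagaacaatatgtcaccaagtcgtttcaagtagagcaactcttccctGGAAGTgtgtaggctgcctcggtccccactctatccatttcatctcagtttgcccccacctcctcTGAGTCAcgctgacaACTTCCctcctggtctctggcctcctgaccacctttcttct
Itga5: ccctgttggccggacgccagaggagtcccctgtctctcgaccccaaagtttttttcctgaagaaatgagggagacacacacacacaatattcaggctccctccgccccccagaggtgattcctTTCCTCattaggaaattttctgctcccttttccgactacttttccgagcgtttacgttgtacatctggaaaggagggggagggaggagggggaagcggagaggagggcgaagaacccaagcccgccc
Itgb5: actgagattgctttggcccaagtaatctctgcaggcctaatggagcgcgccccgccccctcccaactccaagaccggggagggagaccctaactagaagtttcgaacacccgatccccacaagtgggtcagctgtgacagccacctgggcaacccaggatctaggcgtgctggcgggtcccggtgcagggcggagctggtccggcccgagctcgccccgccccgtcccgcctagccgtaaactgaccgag

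The Itgax window held 3 matches, GGAAGT from 121 to 116 bases before the start, TGAGTCA from 56 to 50 bases before it, and ACTTCC from 41 to 36 bases before it. Its last 3 bases lie in an annotated GENCODE exon. The Itga5 window held TTCCTC from 127 to 122 bases before the start, and the Itgb5 window held none of these letters. RefSeq promoter entries existed for 6 members, and Itgal, Itgb2, Itga6 and Itgb3 are named only. GAGGAA lay in 3 of the 6 windows and in 23.3% of 32807 promoter windows of the same length, GGAAGT in 2 of 6 and 19.7%, TGANTCA in 1 of 6 and 6.75%, and CACGTG in 0 of 6 and 6.02%. In the Itgav window, which is not printed, a GGAAGT and a GAGGAA match overlapped. A match describes letters and is no evidence of binding.

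The median library held 18392142 counts and the deepest 27604393. APPPS1_6m replicate 21, with 659 counts, was left out of levels, NLRP3_12m replicate 45 held 1394435 and APPPS1_12m replicate 41 held 6187249, and the next lowest total was 11484943. Levels are counts scaled to the library's total (CPM), and CPM per kilobase of exon where genes are compared with each other. Nlrp3 ranged from 60.1 to 234 CPM over 30 libraries with the intact gene and from 0 to 2.16 CPM over 31 knockout libraries, so no library went against its Nlrp3 label. Itgam ranged from 229.99 to 550.1 CPM and the microglial gene Tmem119 from 779 to 2787 CPM, and the T and NK cell markers summed to at most 32.3 CPM in the 61 libraries. The library labelled APPPS1_12m_Mxo4 replicate 56 stood apart from the other 3 of its group. It held 10.3 CPM of Cst7, a gene of disease-associated microglia, against 1448 to 2170.4 CPM in the others, and 2225 CPM of Tmem119 against 1085 to 1282 CPM. Group means include it unless stated, and the Itgax differences that use this group are given with and without it. APPPS1_12m replicate 38 had a summed level of 10 neutrophil markers of 2531 CPM, against 49.4 to 153 CPM in the other libraries of its group, and of 10 monocyte markers of 482 CPM against 95.7 to 203 CPM.

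Per kilobase of exon, the β subunit genes Itgb5, Itgb2 and Itgb1 were the most abundant members. The median over 61 libraries was 462 CPM per kilobase for Itgb5, 135 for Itgb2 and 116 for Itgb1. The α subunits followed with 34.3 for Itga6, 22.9 for Itgav, 8.35 for Itga5 and 4.28 for Itgax, while the β subunit gene Itgb3 lay among them at 9.88. Itga4 at 0.663 and Itgal at 0.610 were the lowest members. The other β2 partners that are not members were Itgam at 83.5 and Itgad at 0.177 CPM per kilobase. The order of variation was different. The highest group mean in CPM was 26.3 times the lowest for Itgax, 6.60 times for Itgal, 2.92 times for Itga5, 2.56 times for Itga4 and 2.38 times for Itgb3. It was 1.96 times for Itgav, 1.73 times for Itga6, 1.57 times for Itgb2, 1.26 times for Itgb5 and 1.25 times for Itgb1.

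The first question of the design is which genes differ with the transgenes, with Nlrp3 (APPPS1 minus WT) and without it (APPPS1_NLRP3 minus NLRP3), which are comparisons with no library in common. By sex read from Xist and Y-linked genes, NLRP3_6m held 3 female and 1 male libraries, and APPPS1_NLRP3_6m 2 and 3. In the Mxo4 set WT held 2 female and 1 male, APPPS1 1 and 3, NLRP3 1 and 2, and APPPS1_NLRP3 2 and 1. The untagged 12-month groups were all female with Nlrp3 and all male without it. Differences are log2 values ± SE from the edgeR quasi-likelihood test, and genes were called where the Benjamini-Hochberg adjusted p, over the 19865 genes tested, was under 0.05. At 4 months no member was called with Nlrp3, where 0.0252% of genes were, and none without it, where 0.0101% of genes were. Itgax was the 1 member with an unadjusted p under 0.05 in either comparison, against 516 genes with Nlrp3 and 902 without it. DESeq2 called no member at 4 months. At 6 months 2 of 10 members were called with Nlrp3, both higher, against 3.07% of genes called in either direction, and 3 without it, all higher, against 8.14%. At 12 months 6 were called with Nlrp3, 5 higher and 1 lower, against 18.1% of genes, and 3 without it, all higher, against 8.73%. In the Mxo4 set 3 were called with Nlrp3, all higher, against 5.1% of genes, and 3 without it, all higher, against 5.19%. Median differences of the 10 members at 12 months were 0.51 with Nlrp3 and 0.34 without it, and those of all genes were −0.075 and −0.049. At 6 months the members had medians of 0.21 and 0.39, and all genes −0.026 and −0.035. Of the 8 comparisons, 7 called more genes higher than lower under either scaling; APPPS1_NLRP3_6m minus NLRP3_6m had 76.0% of its called genes higher with TMM and 45.8% with DESeq2 size factors.

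**Figure D1:**
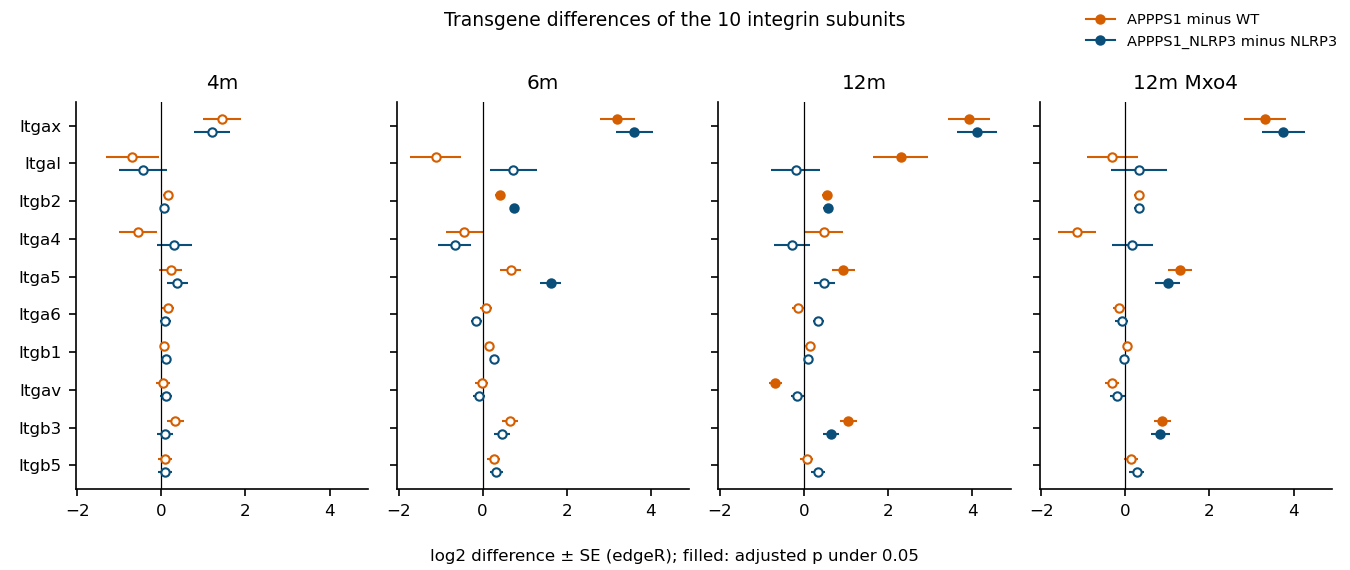
Log2 differences of the 10 members with the transgenes (horizontal axis, ± SE; genes on the vertical axis) in 4 panels for 4, 6 and 12 months and the Mxo4 set, with Nlrp3 (APPPS1 minus WT) and without it (APPPS1_NLRP3 minus NLRP3). Filled points passed the test over 19865 genes; Itgax lies above 3 in both comparisons at 6 months, at 12 months and in the Mxo4 set.

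Itgax (ENSMUSG00000030789, chr7:128129547-128150657 in GRCm38, + strand) encodes CD11c, the α subunit of complement receptor 4. It rose in all transgenic groups from 6 months on, with and without Nlrp3, and was low in every group without the transgenes. At 4 months its level in the libraries was 8.57, 9.39, 10.9 and 11.4 CPM in WT_4m and 23.9, 28.8 and 31.1 CPM in APPPS1_4m. The same age without Nlrp3 gave 7.32, 7.48, 9.29 and 10.6 CPM in NLRP3_4m and 11.1, 19.2, 22.02 and 31.001 CPM in APPPS1_NLRP3_4m. Every transgenic library lay above every library of its comparison group at 4 months, although the lowest APPPS1_NLRP3_4m library was close to the highest NLRP3_4m library. At 6 months the level was 9.02, 9.95, 11.7, 12.9 and 14.5 CPM in WT_6m and 78.6, 103 and 129 CPM in the 3 APPPS1_6m libraries with usable depth. Without Nlrp3 it was 8.04, 8.50, 10.9 and 11.02 CPM in NLRP3_6m and 67.6, 96.1, 97.7, 119.8 and 127 CPM in APPPS1_NLRP3_6m. The groups were far apart at 6 months, with no overlap. At 12 months the level was 9.42, 10.98 and 20.6 CPM in WT_12m and 83.1, 145, 211, 219 and 237 CPM in APPPS1_12m, where the lowest library was replicate 38. Without Nlrp3 it was 9.07, 10.7, 15.8 and 17.05 CPM in NLRP3_12m and 160.2, 191, 195 and 253 CPM in APPPS1_NLRP3_12m. Again no libraries overlapped, and the transgenic groups overlapped each other. In the Mxo4 set the level was 17.3, 19.5 and 32.5 CPM in WT_12m_Mxo4 and 10.4, 247, 264 and 351 CPM in APPPS1_12m_Mxo4, where the lowest value is the library labelled replicate 56. Without Nlrp3 it was 11.9, 16.2 and 27.3 CPM in NLRP3_12m_Mxo4 and 204, 240.5 and 241 CPM in APPPS1_NLRP3_12m_Mxo4. The library labelled replicate 56 lay below all 3 WT_12m_Mxo4 libraries, and the other transgenic libraries of the set lay far above all libraries without the transgenes.

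**Figure D2:**
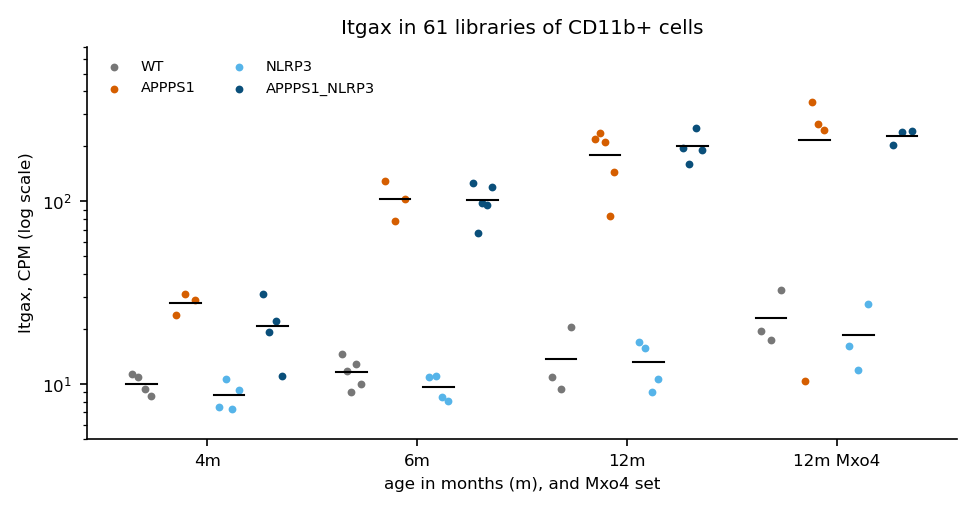
Itgax in each of 61 libraries (points, CPM on a log axis) by group, with bars at the group means. All libraries without the transgenes lie at 32.5 CPM or below, and the transgenic libraries from 6 months on lie at 67.6 CPM or above, except the library labelled APPPS1_12m_Mxo4 replicate 56 at 10.4 CPM.

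The fitted differences of Itgax at 6 months were 3.20 ± 0.42 (adjusted p = 7.35e-07) with Nlrp3 and 3.61 ± 0.44 (adjusted p = 1.23e-07) without it. At 12 months they were 3.93 ± 0.50 (adjusted p = 9.30e-08) and 4.12 ± 0.48 (adjusted p = 2.88e-08), and in the Mxo4 set 3.33 ± 0.49 (adjusted p = 8.88e-06) and 3.76 ± 0.52 (adjusted p = 1.77e-06). These 6 calls held when any 1 library was left out, and without the library labelled replicate 56 the first Mxo4 difference was 3.76 ± 0.34 (adjusted p = 4.87e-12). At 4 months the differences of 1.44 ± 0.46 and 1.21 ± 0.43 did not pass, with adjusted p of 1 and 0.793. When only the groups compared were fitted, the 4-month difference with Nlrp3 was 1.46 (adjusted p = 0.00502) and the Mxo4 difference with Nlrp3, replicate 56 included, was 2.57 (adjusted p = 0.194). Among libraries whose second title number is 2, replicate 56 alone represents APPPS1_12m_Mxo4, and the Itgax difference there was −0.88 (adjusted p = 0.993). In bulk samples, fewer cells of a type and less RNA per cell cannot be told apart. The list of 24 disease-associated microglia markers was chosen with earlier results of these data known. Their summed level was 20372 to 22166 CPM in WT_12m and 51365 to 81032 CPM in APPPS1_12m. Without Nlrp3 it was 20343 to 21747 CPM in NLRP3_12m and 46194 to 62676 CPM in APPPS1_NLRP3_12m. The 10 dendritic cell markers summed to 79.4 to 127 CPM in WT_12m and 37.004 to 59.2 CPM in APPPS1_12m, and to 96.1 to 164 and 49.99 to 106 CPM without Nlrp3; none of them was at 0 in all libraries of a group. The part of these marker genes' cells in the Itgax differences was not tested.

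Ordered by group mean, Itgax ran from 8.68 ± 1.58 CPM (SD, n = 4) in NLRP3_4m to 229 ± 21.5 CPM (SD, n = 3) in APPPS1_NLRP3_12m_Mxo4. The 6 untagged groups without the transgenes took the lowest 6 places, with WT_12m at 13.7 ± 6.03 CPM the highest of them. NLRP3_12m_Mxo4 at 18.5 ± 7.95, APPPS1_NLRP3_4m at 20.8 ± 8.22, WT_12m_Mxo4 at 23.1 ± 8.22 and APPPS1_4m at 27.9 ± 3.73 CPM came next. After a gap followed APPPS1_NLRP3_6m at 102 ± 23.2 and APPPS1_6m at 104 ± 25.2 CPM. The upper end held APPPS1_12m at 179 ± 63.8, APPPS1_NLRP3_12m at 199.7 ± 38.7 and APPPS1_12m_Mxo4 at 218 ± 146 CPM. Without the library labelled replicate 56, APPPS1_12m_Mxo4 had a mean of 287 ± 55.8 CPM (SD, n = 3) and was the highest group. Of the neighbours in the order with all libraries, APPPS1_4m and APPPS1_NLRP3_6m had ranges of mean ± SD that did not overlap, and all other neighbours overlapped by their SD.

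Itgb2 (ENSMUSG00000000290, chr10:77530252-77565708, + strand), the β2 subunit that all 4 CD11 chains share, rose with the transgenes by smaller log2 differences than Itgax. At 12 months the libraries held 361, 408 and 428 CPM in WT_12m and 353, 494, 534, 557 and 582 CPM in APPPS1_12m. Without Nlrp3 they held 353, 359, 394 and 447 CPM in NLRP3_12m and 486, 486, 534 and 581 CPM in APPPS1_NLRP3_12m. All APPPS1_NLRP3_12m libraries lay above all NLRP3_12m libraries, and 4 of 5 APPPS1_12m libraries lay above all WT_12m libraries, whereas replicate 41, the library of low depth, lay below them at 353 CPM and reached 474 CPM after TMM scaling. The 12-month differences were 0.55 ± 0.12 (adjusted p = 0.000452) and 0.56 ± 0.11 (adjusted p = 0.000400), and both held without any 1 library. At 6 months the differences were 0.41 ± 0.11 (adjusted p = 0.0278) with Nlrp3, from 372 ± 37.8 to 484 ± 58.1 CPM, and 0.75 ± 0.11 (adjusted p = 1.60e-06) without it, from 331 ± 15.7 to 489 ± 27.1 CPM. The first of these was lost without WT_6m replicate 16 (adjusted p = 0.0843), 17 (0.0574) or 20 (0.0545), or APPPS1_6m replicate 22 (0.166), 23 (0.0501) or 24 (0.129). It was also lost with the first title number, which has 8 values, as a further term (0.39, adjusted p = 0.187) and with only the groups compared in the fit (0.42, adjusted p = 0.0728). In the Mxo4 set the differences of 0.33 ± 0.12 and 0.32 ± 0.13 did not pass (adjusted p = 0.0990 and 0.149), although DESeq2 called the second (0.34, adjusted p = 0.0347). Without the library labelled replicate 56 the first was 0.47 ± 0.12 (adjusted p = 0.00345). At 4 months the differences were 0.16 ± 0.12 and 0.069 ± 0.11 (adjusted p = 1 and 1).

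Itgal (ENSMUSG00000030830, chr7:127296260-127335138, + strand) encodes CD11a, the α subunit of LFA-1, the ICAM receptor of lymphocytes, monocytes and neutrophils. It was low and uneven, and its 1 call with the transgenes, at 12 months with Nlrp3, rested on few libraries. The libraries held 1.83, 2.68 and 5.23 CPM in WT_12m and 1.29, 4.75, 4.95, 11.6 and 55.8 CPM in APPPS1_12m, where the highest was replicate 38. Without Nlrp3 they held 3.90, 5.02, 5.45 and 7.16 CPM in NLRP3_12m and 3.45, 3.64, 4.14 and 5.78 CPM in APPPS1_NLRP3_12m. The transgenic and other groups overlapped in both comparisons, and replicate 38 lay apart from every other library of the 4 groups. With replicate 38 the difference with Nlrp3 was 2.30 ± 0.65 (adjusted p = 0.00856), and without it 0.96 ± 0.52 (adjusted p = 0.203). It was also lost without WT_12m replicate 34 (2.04, adjusted p = 0.0595) or replicate 40 (2.07, adjusted p = 0.0608), or with only the groups compared (1.46, adjusted p = 0.380). The difference without Nlrp3 was −0.20 ± 0.59 (adjusted p = 0.908). Replicate 38 also held the highest neutrophil and monocyte marker sums of its group, as given above, and their part in the result was not tested. In WT_6m, replicate 18 held 25.2 CPM of Itgal against 1.64 to 6.01 CPM in the other 4 libraries, while its T and NK cell markers summed to 8.81 CPM and its neutrophil markers to 149 CPM, within the range of its group.

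The α subunits that pair with β2 were set against each other as the share of each in their length-scaled sum. Itgam had the largest share of these messages in every library, from 51.1% to 97.6%. The shares add up to the whole, so that of Itgam has to be lower where that of Itgax is higher. In CPM the group means of Itgam ran from 362 in APPPS1_NLRP3_6m to 478 in APPPS1_NLRP3_4m. Shares of messages do not measure which proteins pair. Itgax made up 2.30 ± 0.395% in WT_4m (SD, n = 4) and 5.72 ± 0.230% in APPPS1_4m (n = 3), and 1.88 ± 0.308% in NLRP3_4m (n = 4) and 4.25 ± 1.30% in APPPS1_NLRP3_4m (n = 4). At 6 months the share was 2.82 ± 0.719% in WT_6m and 19.7 ± 4.08% in APPPS1_6m, and 2.35 ± 0.389% in NLRP3_6m and 22.5 ± 4.58% in APPPS1_NLRP3_6m. At 12 months it was 2.89 ± 1.004% in WT_12m and 33.1 ± 9.96% in APPPS1_12m, and 3.13 ± 0.986% in NLRP3_12m and 33.4 ± 4.05% in APPPS1_NLRP3_12m. No libraries overlapped in these 6 comparisons. A two-sided exact permutation test over libraries gave its smallest possible p in each of them, from 0.00794 to 0.0286, and an adjusted p of 0.0381 over 8 comparisons. In the Mxo4 set the share was 5.34 ± 1.77% in WT_12m_Mxo4 and 33.8 ± 21.03% in APPPS1_12m_Mxo4 (exact permutation p = 0.143), with 2.71% in the library labelled replicate 56 and 39.8% or more in the other 3. Without Nlrp3 it was 4.33 ± 2.11% and 39.2 ± 4.41%, where 3 libraries against 3 cannot go below an exact permutation p of 0.1, the value reached. Itgal stayed at or below 7.74% and Itgad at or below 0.575% in every library. Counting of Itgam reads may be affected by Gm49368, a gene on the same strand that shares 3450 exon bases with it.

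**Figure D3:**
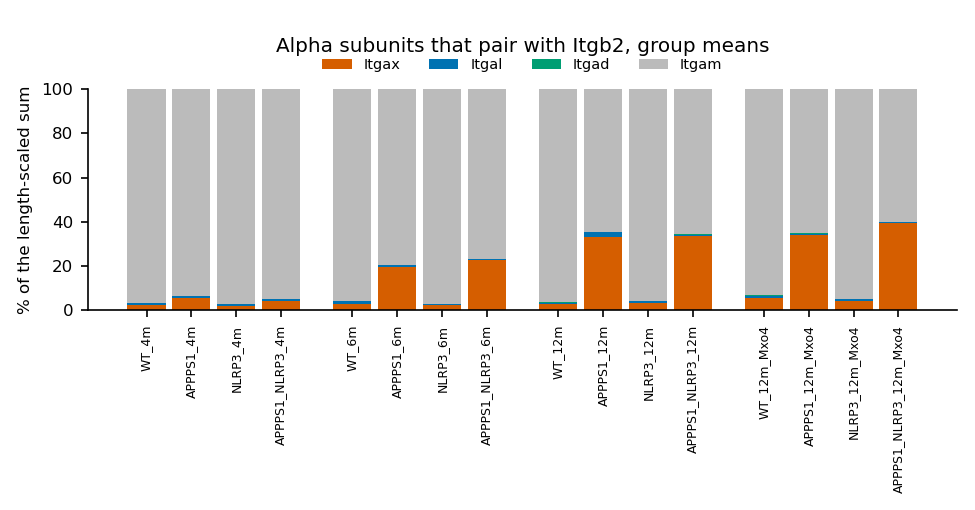
Mean share (percent, stacked bars from 0 to 100) of Itgal, Itgam, Itgax and Itgad in the length-scaled sum of the α subunits that pair with β2, for each of 16 groups. The Itgax part is 1.88% to 5.72% at 4 months, 33.1% and 33.4% in the untagged transgenic groups at 12 months, and 39.2% in APPPS1_NLRP3_12m_Mxo4.

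Of the α subunits that pair with β1, Itga5 rose with the transgenes in part of the comparisons, and Itga4 and Itga6 were not called in any of the 8. Itga5 (ENSMUSG00000000555, chr15:103344286-103366763, − strand) encodes the α subunit of the classical fibronectin receptor. Its libraries held 23.1, 24.4, 24.5 and 29.97 CPM in NLRP3_6m and 40.9, 43.5, 50.4, 87.7 and 119.9 CPM in APPPS1_NLRP3_6m. At the same age they held 31.1, 33.7, 34.1, 34.9 and 41.98 CPM in WT_6m and 41.7, 56.1 and 61.98 CPM in APPPS1_6m. Without Nlrp3 the groups did not overlap, although 2 of the 5 transgenic libraries were far higher than the rest, and with Nlrp3 the lowest APPPS1_6m library lay just below the highest WT_6m library. The 6-month difference was 1.62 ± 0.25 (adjusted p = 8.55e-06) without Nlrp3, and held without any 1 library, and 0.67 ± 0.26 (adjusted p = 0.146) with Nlrp3. At 12 months the libraries held 24.3, 32.7 and 49.95 CPM in WT_12m and 36.7, 47.3, 67.8, 71.6 and 83.98 CPM in APPPS1_12m, and without Nlrp3 34.97, 40.7, 50.9 and 54.5 CPM in NLRP3_12m and 50.8, 57.2, 58.5 and 59.4 CPM in APPPS1_NLRP3_12m. Libraries overlapped in both comparisons, with 3 of 5 APPPS1_12m libraries above all WT_12m libraries and 3 of 4 APPPS1_NLRP3_12m libraries above all NLRP3_12m libraries. The 12-month difference was 0.94 ± 0.27 (adjusted p = 0.0110) with Nlrp3, lost without WT_12m replicate 34 (0.74, adjusted p = 0.105) or 40 (0.82, adjusted p = 0.0759), and 0.49 ± 0.26 (adjusted p = 0.271) without it. The 12-month call was also lost with only the groups compared in the fit (0.88, adjusted p = 0.0561). In the Mxo4 set it was 1.30 ± 0.28 (adjusted p = 0.00247) with Nlrp3 and 1.57 ± 0.27 (adjusted p = 1.77e-05) without the library labelled replicate 56; with only the groups compared, that library included, it was 1.13, adjusted p = 0.125. Without Nlrp3 the Mxo4 difference was 1.01 ± 0.30 (adjusted p = 0.0314), from 31.2 ± 4.43 to 56.9 ± 7.87 CPM, and was lost without NLRP3_12m_Mxo4 replicate 50 (adjusted p = 0.102) or 51 (0.167), or APPPS1_NLRP3_12m_Mxo4 replicate 53 (0.128) or 54 (0.0917). That call was lost too with the first title number (0.94, adjusted p = 0.0862) or sex (0.92, adjusted p = 0.0641) as a term. At 4 months the differences were 0.22 ± 0.27 and 0.38 ± 0.25 (adjusted p = 1 and 1).

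Itga6 (ENSMUSG00000027111, chr2:71745616-71858416, + strand), the α subunit of laminin receptors, had differences from −0.15 to 0.34 over the 8 comparisons, with a smallest adjusted p of 0.119. Its group means ran from 235 ± 16.8 CPM (SD, n = 3) in APPPS1_NLRP3_12m_Mxo4 to 407 ± 28.4 CPM (SD, n = 3) in APPPS1_4m. Itgb1 (ENSMUSG00000025809, chr8:128685654-128733200, + strand), the β subunit shared by many α subunits, had differences from −0.026 to 0.27 and a smallest adjusted p of 0.0588. All its group means lay between 421 and 528 CPM, so it was the steadiest member by group means. In APPPS1_NLRP3_6m minus NLRP3_6m Itgb1 was called higher without libraries under 10000000 counts (0.25, adjusted p = 0.0157). It was also called there with sex as a term (0.26, adjusted p = 0.0209). Itga4 (ENSMUSG00000027009, chr2:79255426-79333123, + strand) encodes the α subunit of VLA-4, which is typical of lymphocytes and monocytes, and was low, with group means from 5.29 ± 1.72 CPM (SD, n = 4) in APPPS1_12m_Mxo4 to 13.6 ± 3.05 CPM (SD, n = 4) in APPPS1_NLRP3_4m. Its differences ran from −1.15 to 0.48, with a smallest adjusted p of 0.141. Without the library labelled replicate 56 the Itga4 difference of the Mxo4 set with Nlrp3 was −1.43 ± 0.50 (adjusted p = 0.0476), against −1.15 ± 0.45 (adjusted p = 0.141) with it. Itga4 in APPPS1_12m replicate 38 was 31.7 CPM, against 1.45 to 6.15 CPM in the other 4 libraries. Without that library APPPS1_12m minus WT_12m moved from 0.48 ± 0.45 to −0.79 ± 0.32 (adjusted p = 0.0862), and the monocyte and neutrophil sums of replicate 38 stand above. Itga4 shares 1124 exon bases with Cerkl on the other strand, and Itgav 634 with Gm13684; the strand setting of the counting is not given, so reads of these pairs cannot be told apart.

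Among the αv group, Itgb3 rose, Itgav fell in 1 comparison, and Itgb5 was not called with all libraries in the fit. Itgb3 (ENSMUSG00000020689, chr11:104608000-104670476, + strand) encodes β3, which forms the vitronectin receptor with αv and the platelet fibrinogen receptor with αIIb. Its libraries held 29.3, 36.6 and 50.2 CPM in WT_12m and 27.6, 62.6, 87.6, 96.1 and 97.3 CPM in APPPS1_12m. Without Nlrp3 they held 45.7, 49.4, 59.03 and 61.7 CPM in NLRP3_12m and 61.2, 69.1, 72.3 and 84.3 CPM in APPPS1_NLRP3_12m. Replicate 41 was the lowest APPPS1_12m library at 27.6 CPM, or 37.1 CPM after TMM scaling, and the other 4 lay above all WT_12m libraries; without Nlrp3 the lowest transgenic library lay just below the highest NLRP3_12m library. The 12-month differences were 1.05 ± 0.21 (adjusted p = 0.000128) with Nlrp3, which held without any 1 library, and 0.64 ± 0.20 (adjusted p = 0.0288) without it. The second was lost without NLRP3_12m replicate 47 (0.0615) or 48 (0.122), or APPPS1_NLRP3_12m replicate 43 (0.0842), 44 (0.0782) or 46 (0.0703), given as adjusted p, and when the fit held a term for the first title number (0.0580), no term for the second (0.109) or only the groups compared (0.0884). In the Mxo4 set the differences were 0.88 ± 0.21 (adjusted p = 0.00595) with Nlrp3, 1.11 ± 0.20 (adjusted p = 4.15e-05) without the library labelled replicate 56, and 0.83 ± 0.22 (adjusted p = 0.0144) without Nlrp3. The last was lost without NLRP3_12m_Mxo4 replicate 51 (0.75, adjusted p = 0.0942) or APPPS1_NLRP3_12m_Mxo4 replicate 54 (0.79, adjusted p = 0.0650), or with no term for the second title number (0.73, adjusted p = 0.0854), and the first, replicate 56 included, with only the groups compared (0.78, adjusted p = 0.152). At 6 months Itgb3 had 0.64 ± 0.19 (adjusted p = 0.0525) with Nlrp3, which passed in 6 alternative settings, among them DESeq2 (0.63, adjusted p = 0.0367), and 0.46 ± 0.18 (adjusted p = 0.111) without it. The 10 markers of platelets, which carry β3, summed to 35.4 to 55.4 CPM in WT_12m and 21.1 to 43.96 CPM in APPPS1_12m, and to 50.9 to 90.01 and 29.1 to 59.5 CPM without Nlrp3. The part of platelets in the Itgb3 differences was not tested.

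Itgav (ENSMUSG00000027087, chr2:83724397-83806916, + strand), the αv subunit, was lower in APPPS1_12m than in WT_12m. Its libraries held 238, 285 and 323 CPM in WT_12m and 72.1, 138, 174, 177 and 209 CPM in APPPS1_12m, and 245, 249, 266 and 281 CPM in NLRP3_12m and 183, 205, 225 and 233 CPM in APPPS1_NLRP3_12m. All transgenic libraries lay below all others in both comparisons, and the lowest was APPPS1_12m replicate 41 at 72.1 CPM, or 96.7 CPM after TMM scaling. Itgav fell by 0.68 ± 0.16 with Nlrp3 (adjusted p = 0.00111), which held without any 1 library, and the difference without Nlrp3 was −0.16 ± 0.15 (adjusted p = 0.593). The difference between these, the interaction at 12 months, was 0.52 ± 0.22 (adjusted p = 0.409). It sets all-female groups with Nlrp3 against all-male groups without it, so sex and Nlrp3 cannot be told apart in it. In the other 6 transgene comparisons Itgav had no adjusted p below 0.295. Itgb5 (ENSMUSG00000022817, chr16:33829665-33949338, + strand) encodes β5, a partner of αv and a gene known for high levels in microglia. Its group means ran from 1449 ± 179.9 CPM (SD, n = 4) in NLRP3_12m to 1826 ± 172 CPM (SD, n = 4) in APPPS1_12m_Mxo4. The fitted differences ran from 0.061 to 0.33, with a smallest adjusted p of 0.184. Without libraries under 10000000 counts Itgb5 was called higher in APPPS1_6m minus WT_6m (0.35, adjusted p = 0.0419). In that setting it was also called higher in APPPS1_NLRP3_6m minus NLRP3_6m (0.31, adjusted p = 0.0308) and APPPS1_NLRP3_12m minus NLRP3_12m (0.36, adjusted p = 0.0302). APPPS1_12m replicate 41, a library of low depth, held 752 CPM of Itgb5 against 1567 to 1872 CPM in the other 4, and its TMM factor of 0.745 was the lowest of the 61 libraries, so that it held 1010 CPM after TMM scaling. CPM means of Itgb5 and Itgb1 in APPPS1_12m were 1537 ± 455 and 461 ± 49.3, against 1669.6 ± 227 and 512 ± 14.01 in WT_12m, whereas the fitted differences, which use TMM, were 0.061 ± 0.16 and 0.13 ± 0.099, with the opposite sign and not called.

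**Figure D4:**
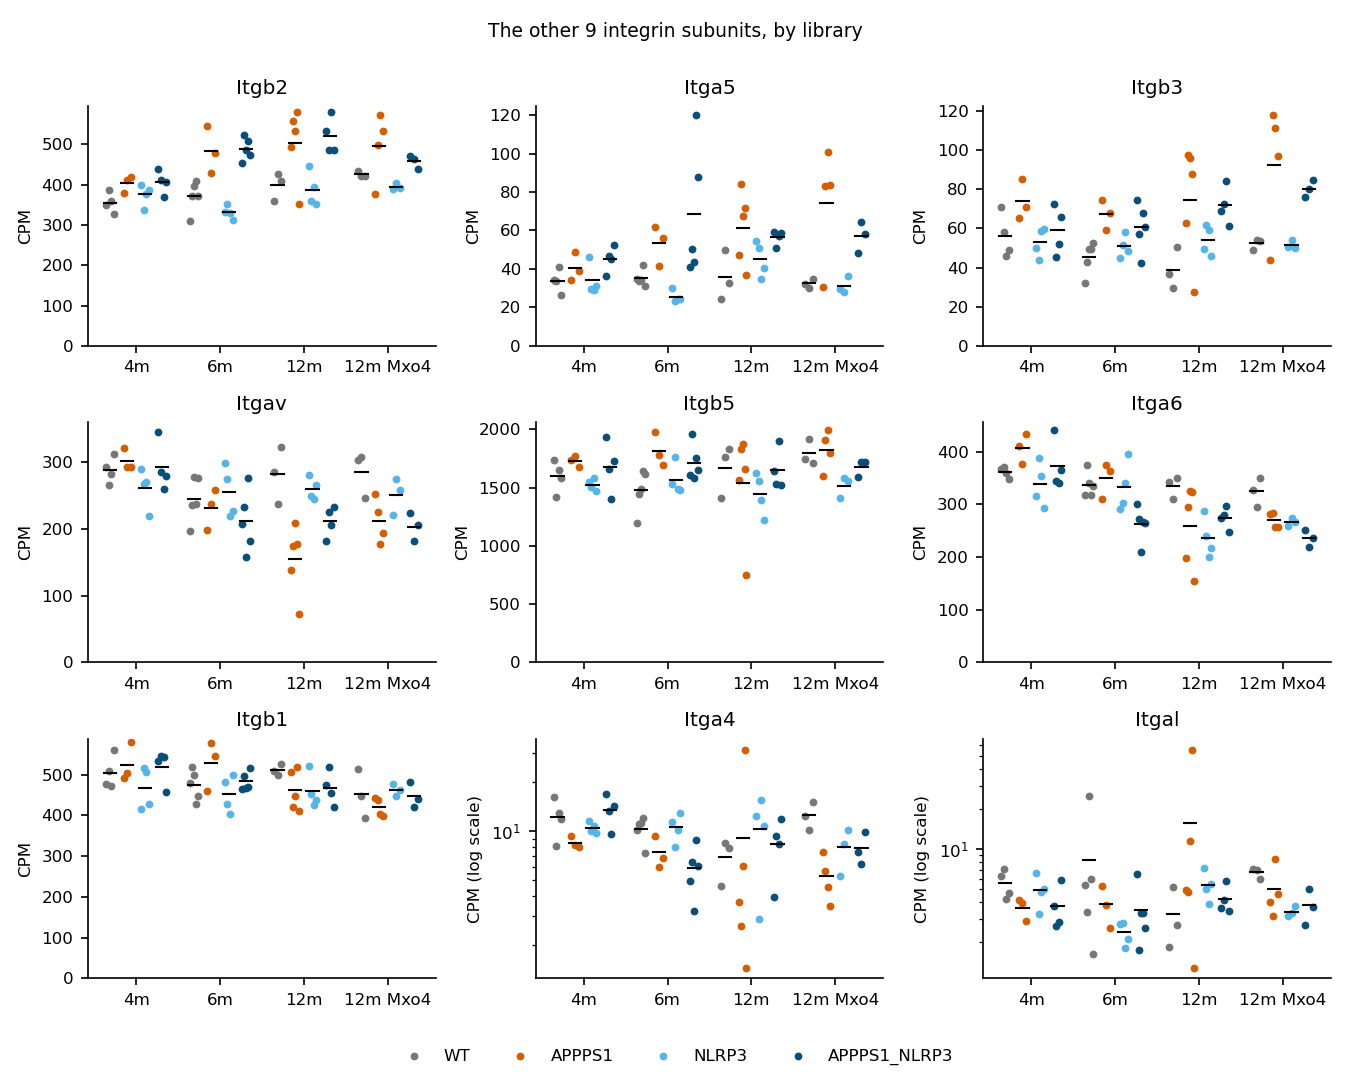
Level in each of 61 libraries (points, CPM) of the other 9 members by group, 1 panel a gene, with bars at the group means and a log axis for Itga4 and Itgal. Group means of Itgb2, Itga5 and Itgb3 are higher in the untagged transgenic groups at 12 months than in their comparison groups. Libraries overlap there except for Itgb2 without Nlrp3, and the Itga5 difference without Nlrp3 was not called. Itgal and Itga4 have single high libraries, and Itgb5 and Itgb1 keep a narrow range of group means.

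A further question of the design is whether loss of Nlrp3 changes expression. No member was called in NLRP3 minus WT at 4, 6 or 12 months or in the Mxo4 set, where 0.398%, 0.488%, 1.59% and 0.101% of genes were called. At an unadjusted p under 0.05 there were 0, 3, 1 and 0 members, against 1722, 1978, 3075 and 1085 of all genes. For NLRP3 minus WT, DESeq2 called Itga6 at 12 months (−0.48, adjusted p = 0.0236). In APPPS1_NLRP3 minus APPPS1, 0.237%, 0.508%, 6.18% and 0.337% of genes were called at these stages, and of the members only Itgal, at 12 months, fell by 1.85 ± 0.56 (adjusted p = 0.0374). That call was lost without APPPS1_12m replicate 38 (−0.49 ± 0.46 (adjusted p = 0.593)), in whose absence Itga4 was higher in APPPS1_NLRP3_12m by 1.11 ± 0.30 (adjusted p = 0.0298), and also without APPPS1_NLRP3_12m replicate 43, 44, 46 or 49, with differences of −1.84, −1.88, −1.997 and −1.72. It was lost too with the first title number (−1.14, adjusted p = 0.231) or sex (−1.36, adjusted p = 0.326) as a term, and with only the groups compared (−1.35, adjusted p = 0.407). Sex was read from Xist and Y-linked genes: all 3 WT_12m and 5 APPPS1_12m libraries were female and all 4 NLRP3_12m and 4 APPPS1_NLRP3_12m libraries male, so sex and Nlrp3 cannot be told apart in the untagged 12-month groups. For Itgax the difference APPPS1_NLRP3 minus APPPS1 was −0.40 ± 0.44 at 4 months, 0.066 ± 0.41 at 6 months, 0.043 ± 0.37 at 12 months and 0.23 ± 0.46 in the Mxo4 set. The approximate 95% intervals were −1.27 to 0.47, −0.74 to 0.87, −0.69 to 0.78 and −0.66 to 1.12. Without replicate 56 the last was −0.29 ± 0.32 (adjusted p = 0.928). All APPPS1_NLRP3_12m_Mxo4 libraries have the second title number 2, which replicate 56 alone has in APPPS1_12m_Mxo4, so a fit of only these groups, with that number as a term, sets them against replicate 56. It gave 4.63, adjusted p = 6.09e-06 for Itgax and called Itgb2, Itga5 and Itgb3 too, and the fit within second title number 2 gave 4.62, adjusted p = 5.76e-07. The interaction, which subtracts the transgene difference with Nlrp3 from that without it, was −0.23 ± 0.63, 0.41 ± 0.59, 0.19 ± 0.61 and 0.43 ± 0.65 for Itgax, with 95% intervals of −1.46 to 1.0001, −0.74 to 1.55, −1.005 to 1.39 and −0.84 to 1.70. The last was −0.028 ± 0.44 (adjusted p = 1) without replicate 56, and 4.39, adjusted p = 5.35e-05 within second title number 2, where replicate 56 is the only library of its group. No member was called in these 4 interactions, nor was one by DESeq2, and edgeR called 0.0%, 0.0201%, 0.00503% and 0.0% of genes. An unadjusted p under 0.05 was reached by 0, 3, 3 and 0 members, against 361, 1488, 1995 and 817 of all genes.

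Changes with age were compared within each genotype. By the same reading of sex, all WT and all readable APPPS1 libraries of the untagged set were female, whereas its NLRP3 and APPPS1_NLRP3 libraries were all female at 4 months, of both sexes at 6 months and all male at 12 months, so age and sex cannot be told apart within these genotypes from 4 to 12 months. No member was called in WT between any of the 3 ages with edgeR or DESeq2. For 6m minus 4m, 12m minus 6m and 12m minus 4m, edgeR called 0.0805%, 0.0% and 0.0302% of genes. In this order 0, 1 and 1 members had an unadjusted p under 0.05, against 1661, 1387 and 1043 of all genes. From 4 to 12 months in APPPS1, 4 members rose and 2 fell, against 22.4% of genes called. Itgax rose by 2.94 ± 0.47 (adjusted p = 5.01e-06), Itgb2 by 0.56 ± 0.12 (adjusted p = 0.000264), Itga5 by 0.83 ± 0.27 (adjusted p = 0.0195) and Itgal by 2.26 ± 0.63 (adjusted p = 0.00647), and the differences of Itgav and Itga6 were −0.75 ± 0.16 (adjusted p = 0.000249) and −0.43 ± 0.14 (adjusted p = 0.0196). The calls of Itgax, Itgb2 and Itgav held without any 1 library. That of Itga5 was lost without APPPS1_4m replicate 2 (adjusted p = 0.114) or APPPS1_12m replicate 36 (0.0531), that of Itgal without APPPS1_12m replicate 38 (0.88, adjusted p = 0.229), and that of Itga6 without APPPS1_4m replicate 2 (0.0633) or 6 (0.107) or APPPS1_12m replicate 35 (0.0699) or 41 (0.0817). The Itga6 call was lost too without libraries under 10000000 counts (−0.29, adjusted p = 0.0985), and those of Itga6 and Itgal with only the groups compared (adjusted p = 0.102 and 0.118). In APPPS1_NLRP3 Itgax and Itgb2 rose over the same span, by 3.39 ± 0.44 (adjusted p = 5.85e-07) and 0.49 ± 0.11 (adjusted p = 0.00149), against 12.1% of genes called, and held without any 1 library. With sex as a term, which the other groups then determine, these differences were 3.85, adjusted p = 5.36e-07 and 0.52, adjusted p = 0.00362. Both were higher there at 6 months already, by 2.41 ± 0.41 (adjusted p = 0.000206) and 0.38 ± 0.11 (adjusted p = 0.0214), against 5.67% of genes called; the second was lost without APPPS1_NLRP3_6m replicate 31 (adjusted p = 0.0688) or APPPS1_NLRP3_4m replicate 13 (0.0907) or 14 (0.0738), with no filter (0.0573) and with only the groups compared (0.0502). DESeq2 also called Itga6 lower in APPPS1_NLRP3 at 6 (−0.44, adjusted p = 0.00457) and 12 months (−0.34, adjusted p = 0.0384) than at 4 months.

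In APPPS1 from 4 to 6 months no member was called, against 0.312% of genes. Itgax had 1.94 ± 0.48 (adjusted p = 0.0508) there, and DESeq2 called Itgax (1.90, adjusted p = 0.0221). An unadjusted p under 0.05 was reached by 2 members, against 2350 of all genes. From 6 to 12 months 1 member rose in APPPS1, against 15.7% of genes called: Itgal by 2.08 ± 0.63 (adjusted p = 0.0205), lost without APPPS1_12m replicate 38 (0.73, adjusted p = 0.349) or APPPS1_6m replicate 22 (0.0744), 23 (0.0537) or 24 (0.0825), when the fit held a term for the first title number (0.101) or with only the groups compared (0.263). DESeq2 called Itgav lower there (−0.49, adjusted p = 0.0163). Itgax had 1.001 ± 0.42 (adjusted p = 0.0948) there and 0.98 ± 0.37 (adjusted p = 0.254) in APPPS1_NLRP3. Over this span in APPPS1_NLRP3 no member was called by either tool, and edgeR called 1.15% of genes. There 1 member had an unadjusted p under 0.05, against 2184 of all genes. NLRP3 mice had 2 calls by edgeR, and DESeq2 called Itga6 lower at 12 than at 6 months (−0.49, adjusted p = 0.00454). Itga5 rose from 6 to 12 months by 0.87 ± 0.26 (adjusted p = 0.0461), against 4.2% of genes called, and Itga6 fell by 0.55 ± 0.14 from 4 to 12 months (adjusted p = 0.0470), against 0.448%. Each was lost in 6 of the 8 fits that leave out 1 library of the pair of groups, for Itga5 without NLRP3_6m replicate 27, 32 or 33 or NLRP3_12m replicate 42, 45 or 48 (adjusted p from 0.0522 to 0.222), and for Itga6 without NLRP3_4m replicate 10, 12 or 15 or NLRP3_12m replicate 45, 47 or 48 (adjusted p from 0.0748 to 0.167). The Itga6 call, which compares female with male libraries, was lost with sex as a term (−0.46, adjusted p = 0.196), and both calls were lost with the first title number as a term (adjusted p = 0.0897 for Itga5 and 0.0802 for Itga6). Itga5 was lost with DESeq2 (0.0501), with its size factors (0.0681) and without libraries under 10000000 counts (0.0976), and Itga6 with no term for the second title number (0.0509) and with only the groups compared (0.176), given as adjusted p. No member was called in NLRP3 from 4 to 6 months by edgeR or DESeq2, and edgeR called 0.851% of genes. An unadjusted p under 0.05 was reached by 2 members, against 2970 of all genes. The change of the transgene difference with age was itself tested. APPPS1 minus WT at 12 months minus that at 4 months was 2.49 ± 0.65 (adjusted p = 0.0148) for Itgax and 2.99 ± 0.89 (adjusted p = 0.0356) for Itgal, against 4.97% of genes called, and the difference at 12 months minus that at 6 months was 3.41 ± 0.88 (adjusted p = 0.0441) for Itgal, against 0.831%. The Itgax value was lost without WT_12m replicate 39 (2.30, adjusted p = 0.0555), and the Itgal values were lost without 8 of 15 and 13 of 17 libraries, with 1.62, adjusted p = 0.202 and 2.05, adjusted p = 0.118 without APPPS1_12m replicate 38. With the first title number as a term none of the 3 passed, with 2.19, adjusted p = 0.177 for Itgax and 2.61, adjusted p = 0.179 and 2.72, adjusted p = 0.134 for Itgal. With only the groups compared, Itgal had adjusted p of 0.182 and 0.207, and DESeq2 called Itgav at 12 months minus 4 months (−0.77, adjusted p = 0.0154). These comparisons share groups with each other and with the transgene comparisons at 12 months, so they are not independent of them.

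Between the Mxo4 and the untagged set at 12 months no member was called by edgeR in WT, NLRP3, APPPS1 or APPPS1_NLRP3, where 0.227%, 6.85%, 6.49% and 1.18% of genes were called. At an unadjusted p under 0.05 there were 0, 0, 3 and 0 members, against 2095, 4070, 4649 and 2660 of all genes. DESeq2 called Itgal (−1.63, adjusted p = 0.0422) and Itgb1 (−0.21, adjusted p = 0.0181) in APPPS1. By the reading of sex above, APPPS1_12m held 5 female libraries, and APPPS1_12m_Mxo4 held 1 female and 3 male libraries. The mix of sexes differed between the sets in the other genotypes too. The part of sex in these DESeq2 calls was not tested. Itgax was 13.7 ± 6.03 CPM in WT_12m and 23.1 ± 8.22 CPM in WT_12m_Mxo4, differing by 0.76 ± 0.49 (adjusted p = 0.643). In APPPS1 the Itgax difference was 0.16 ± 0.38 (adjusted p = 0.852), and without replicate 56 0.62 ± 0.27 (adjusted p = 0.199); in APPPS1_NLRP3 it was 0.35 ± 0.43 (adjusted p = 0.828). APPPS1 minus WT of the set difference, a comparison of 4 groups, called no member and 0.00503% of genes. An unadjusted p under 0.05 was reached there by 2 members, against 1937 of all genes. This comparison gave −0.60 ± 0.62 for Itgax, or −0.17 ± 0.42 (adjusted p = 0.948) without replicate 56. Within second title number 2, where replicate 56 alone is left of its group, Itgax in APPPS1 was −4.44, adjusted p = 8.64e-07.

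The wider integrin pathway was described in APPPS1_12m minus WT_12m, with the comparison without Nlrp3 beside it. Of 15 tested integrin subunits other than the members, 0 rose and 2 fell with Nlrp3 (median −0.26), and 1 rose and 1 fell without it (median −0.59), so 13.3% and 13.3% were called, against 18.1% and 8.73% of all genes. Itga9, the α subunit of the tenascin and osteopontin receptor α9β1, went from 110.4 ± 12.3 to 46.3 ± 20.8 CPM with Nlrp3, differing by −1.11 ± 0.19 (adjusted p = 1.08e-05), and from 105 ± 24.5 to 59.3 ± 11.3 CPM without it, −0.70 ± 0.18 (adjusted p = 0.00857). Itgae, the CD103 chain of the E-cadherin receptor of mucosal lymphocytes, went from 4.95 ± 1.38 to 2.17 ± 1.23 CPM, differing by −0.98 ± 0.34 (adjusted p = 0.0346). The subunit that rose without Nlrp3 was Itgad, 1.93 ± 0.53 (adjusted p = 0.0134), from 0.642 ± 0.589 to 2.38 ± 0.647 CPM, named because it was the only one; it shares exon bases with genes on both strands. Of 36 tested ligands, 4 rose and 1 fell with Nlrp3 (median −0.21), and 2 rose and 5 fell without it (median −0.28), so 13.9% and 19.4% were called, against 18.1% and 8.73% of all genes. Spp1, which encodes osteopontin, an RGD protein bound by αv and α5 receptors, rose from 51.6 ± 24.8 to 523 ± 439 CPM, by 3.61 ± 0.64 (adjusted p = 2.80e-05), and without Nlrp3 from 17.5 ± 7.996 to 524 ± 122 CPM, by 4.95 ± 0.63 (adjusted p = 1.86e-07). Adam9, a metalloprotease with a disintegrin domain, rose by 0.64 ± 0.13 (adjusted p = 0.000182) and 0.65 ± 0.12 (adjusted p = 0.000234). Thbs1, the matrix protein thrombospondin 1, and C3, whose fragment iC3b is bound by CD11b and CD11c receptors, rose with Nlrp3 by 1.14 ± 0.29 (adjusted p = 0.00340) and 1.74 ± 0.46 (adjusted p = 0.00526); without it the values were 0.72 ± 0.28 (adjusted p = 0.103) and 0.60 ± 0.44 (adjusted p = 0.462).

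Of 47 tested adaptors and regulators of integrin activation, 8 rose and 7 fell with Nlrp3 (median −0.022), and 4 rose and 4 fell without it (median −0.054), so 31.9% and 17.02% were called, against 18.1% and 8.73% of all genes. Cd9, a tetraspanin that associates with integrins, rose from 857 ± 14.1 to 2328 ± 670.4 CPM, by 1.72 ± 0.24 (adjusted p = 6.16e-07), and by 1.19 ± 0.22 (adjusted p = 0.000216) without Nlrp3. Fgr, a Src-family kinase that signals downstream of β2 integrins, rose by 1.95 ± 0.35 (adjusted p = 3.78e-05) and 1.56 ± 0.33 (adjusted p = 0.00105). Tln2, a talin that links β subunits to actin, rose by 0.74 ± 0.16 (adjusted p = 0.000665) with Nlrp3, and without it the difference was 0.36 ± 0.16 (adjusted p = 0.155). Elmo1, part of an exchange factor for Rac that acts in uptake of dead cells, was lower, with differences of −0.92 ± 0.14 (adjusted p = 1.70e-06) and −0.48 ± 0.14 (adjusted p = 0.0173). The median over all genes was −0.075 with Nlrp3 and −0.049 without it.

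Likeness of pattern was measured as the Pearson correlation of log2(mean CPM + 1) over the 16 group means, among 11046 genes; the group means share libraries, depth and the CPM scale, so the values are a description. The genes most like Itgax were Hexa (0.990), Egln3 (0.990), Tmem202 (0.987), Pld3 (0.986) and Ctsb (0.985), of which Hexa, Pld3 and Ctsb encode lysosomal enzymes. Among the other members, Itgb2 came closest to Itgax with 0.93 at rank 175, then Itga5 with 0.88 and Itgb3 with 0.82, while Itgav lay at −0.78 and Itgal at 0.17. The genes most like Itgb5 were Josd1 (0.878), Entpd5 (0.842), Abca2 (0.815), Manba (0.802) and Acly (0.801).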

How the data were processed

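The deposited values were whole-number counts per gene identifier, 1 column per library, not normalized by the authors. Per the labels' protocols, SMART-Seq v4 libraries were made from 10 ng of RNA in 2 batches and sequenced in pools of 7 to 8 on a HiSeq 2500 (paired, 125 bp). Trimmomatic, TopHat and HTSeq with mm10 are named per the submitters' processing notes; versions, strand and multi-mapping settings are not given in the sources used here. No molecular identifiers are named, so counts may include PCR copies. GENCODE vM21 (GRCm38, the same assembly as mm10) gave symbols for 53620 identifiers, and 1-based positions. Members and gene lists were chosen with earlier results of these data known. All 62 libraries were fitted together in edgeR 4.0.16 (R 4.3.3, limma 3.58.1) with TMM and filterByExpr (minimum count 10, minimum total 15); the terms were group and the second title number, which splits the libraries 31 to 31 and may or may not mark the batches. The 39 comparisons were 8 for the transgenes, 8 for Nlrp3, 4 interactions, 14 for time and 5 for Mxo4. The quasi-likelihood F test was two-sided, adjusted by Benjamini-Hochberg over all genes; SE was taken as the log2 difference over the root of F. CPM use total counts of the 61 libraries with at least 100000 counts; APPPS1_6m replicate 21 stayed in the fit. Named genes were all members, up to 4 called genes of each pathway list by adjusted p in APPPS1_12m minus WT_12m, the 5 genes most alike Itgax and Itgb5 among those reaching 5 CPM in a group, and label checks. Alternatives were DESeq2 1.42.0, DESeq2 size factors, no filter, other covariates (sex, title numbers), only the groups compared, libraries of 10000000 counts or more, and each library left out (filter and dispersion trend of the full fit). Fits within either second title number, TMM-scaled levels and levels without APPPS1_12m_Mxo4 replicate 56 were added after seeing the data. Scripts were tested on simulated data. The 90 replicate pairs differed beyond counting error (chi-square per degree of freedom at least 6.55).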

Additional observations from a re-analysis of the deposited data

Results flagged for a closer look

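Of 100 combinations of member and group with 4 or more libraries, 6 held a library far from the others by the gap to its nearest neighbour, and chance gives about 1 in 20. APPPS1_12m replicate 38 held Itgal at 55.8 CPM, against 1.29 to 11.6 CPM in the other 4 libraries, and Itga4 at 31.7 CPM, against 1.45 to 6.15 CPM; its neutrophil and monocyte marker sums, 2531 and 482 CPM, were the highest of its group, and their part in these values was not tested. WT_6m replicate 18 held Itgal at 25.2 CPM, against 1.64 to 6.01 CPM in the other libraries. APPPS1_12m replicate 41, the library with 6187249 counts, held Itgb5 at 752 CPM, against 1567 to 1872 CPM in the others. APPPS1_NLRP3_4m replicate 14 held Itgb1 at 458 CPM, against 533 to 547 CPM, and NLRP3_4m replicate 8 held Itga5 at 46.1 CPM, against 29.2 to 31.2 CPM. A change of the transgene difference with age was called for a pair of members. For Itgax the difference was larger by 2.49 ± 0.65 log2 units at 12 months than at 4 months (edgeR adjusted p = 0.0148). Of the transgenic libraries, 5 of 5 lay above WT at 12 months and 3 of 3 at 4 months. For Itgal the 12-month difference was larger by 2.99 ± 0.89 than at 4 months (edgeR adjusted p = 0.0356). It was larger by 3.41 ± 0.88 than at 6 months (edgeR adjusted p = 0.0441), with 2 of 5 transgenic libraries above all WT_12m libraries. The Itgal calls were lost without APPPS1_12m replicate 38, and the Itgax call without WT_12m replicate 39. All of these calls were lost with the first title number as a term, as given above. Without WT_6m replicate 18, APPPS1_6m minus WT_6m of Itgal moved from −1.12 ± 0.60 to −0.0068 ± 0.53. Itga6 was higher in all APPPS1_4m libraries than in all WT_4m libraries, with a ratio of CPM means of 1.13. In the Mxo4 set all APPPS1_12m_Mxo4 libraries lay below all WT_12m_Mxo4 libraries, with a ratio of 0.831. All APPPS1_NLRP3_12m_Mxo4 libraries lay below all NLRP3_12m_Mxo4 libraries, with a ratio of 0.884. The fitted Itga6 differences, which use TMM, were 0.16 ± 0.15, −0.15 ± 0.15 and −0.089 ± 0.16 in this order, and none was called. The differences of Itga6 between stages were not tested.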

How the results depend on the processing

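No paired analysis was possible because no replicate number is shared by libraries of different groups. Of 39 single differences (Itgax in the 8 transgene comparisons and all called members), 38 kept their direction and side of the threshold with DESeq2 size factors, 38 with DESeq2, 38 with no filter, 35 with no term for the second title number, 36 with sex as a term, 36 without libraries under 10000000 counts and 29 with a term for the first title number. Fits of only the groups compared kept 23, and fits within second title number 1 or 2 kept 20 of 36 and 19, but 7 arms then hold 1 usable library, which is assumed to vary like the other groups: APPPS1_6m, WT_12m and NLRP3_12m_Mxo4 within 1, and APPPS1_4m, NLRP3_12m, WT_12m_Mxo4 and APPPS1_12m_Mxo4 within 2. With only the groups compared, Itgax in APPPS1_4m minus WT_4m was 1.46 (adjusted p = 0.00502) and in APPPS1_12m_Mxo4 minus WT_12m_Mxo4 2.57 (adjusted p = 0.194); the members called were 1 and 0 there, against 0 and 3. Within second title number 2, where the library labelled replicate 56 alone stands for APPPS1_12m_Mxo4, that comparison called 0 members, and Itgax, Itga5 and Itgb3 reversed to −0.88 (adjusted p = 0.993), −0.053 (adjusted p = 1) and −0.14 (adjusted p = 1). The same libraries gave 1 member in each of APPPS1_6m minus WT_6m, APPPS1_NLRP3_12m minus NLRP3_12m and APPPS1_NLRP3_12m_Mxo4 minus NLRP3_12m_Mxo4. APPPS1_6m minus WT_6m had 1 called member with the first title number as a term or within second title number 1, and 4 without libraries under 10000000 counts, which gave 5 in APPPS1_NLRP3_6m minus NLRP3_6m; APPPS1_12m minus WT_12m had 2 within second title number 1, which has no APPPS1_NLRP3_12m_Mxo4 library. Over the 12 Nlrp3 and interaction comparisons the members called were 1 as reported, 0 with the first title number or sex as a term, 2 with DESeq2, 3 within second title number 2 and 4 with only the groups compared; all 4, and Itgax in 2 of the 3, are differences from replicate 56. Over the 14 time comparisons they were 16, and 7 within second title number 1; over the 5 Mxo4 comparisons 0, and 1 without libraries under 10000000 counts, 2 with DESeq2 and 3 within second title number 2. When each library was left out, members called ranged from 1 to 3 in APPPS1_6m minus WT_6m, 3 to 5 and 1 to 3 in the Mxo4 set with and without Nlrp3, 0 to 2 over the 12 Nlrp3 and interaction comparisons, 13 to 19 over the 14 time comparisons and 0 to 2 over the 5 Mxo4 comparisons. These counts under other settings stand without the share of all genes called in the same fit. The number of all genes called also changed between fits, so the counts are no result about the members. Leaving out each library moved the Itgax share difference from 3.28 to 3.57 points in APPPS1_4m minus WT_4m, 1.94 to 2.97 in APPPS1_NLRP3_4m minus NLRP3_4m, 14.9 to 18.98 in APPPS1_6m minus WT_6m and 28.6 to 34.6 in APPPS1_12m minus WT_12m, where the adjusted p passed 0.05 in some fits because fewer libraries raise the smallest possible exact p. Genes called in all were, as reported and in brackets over the alternatives, 5 (3 to 13) and 2 (1 to 6) at 4 months with and without Nlrp3, 609 (66 to 1944) and 1618 (584 to 2067) at 6 months, 3601 (583 to 4852) and 1735 (381 to 1822) at 12 months, and 1014 (0 to 1551) and 1031 (839 to 1824) in the Mxo4 set; without the library labelled replicate 56 the Mxo4 count with Nlrp3 was 2529. DESeq2 size factors moved the median of all genes in APPPS1_NLRP3_6m minus NLRP3_6m from −0.035 to −0.15. TMM-scaled library sizes moved 24 of 160 group means of members by more than 1 SD. The cause of these changes was not tested. Itgal had 8 counts in APPPS1_12m replicate 41, and low counts limit the precision of Itgal and Itgad.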

Other observations

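Genes near the members were counted in the Nlrp3 comparisons. Itgb3 starts at base 104608000 of chromosome 11 and Nlrp3 at base 59541568, so genes near Itgb3 are not neighbours of Nlrp3. The untagged 12-month groups with and without Nlrp3 also differed in sex, as given above. Of 7 tested genes whose start lies within 500 kb of Itgb3, on the chromosome of Nlrp3, 1 rose and 1 fell in APPPS1_NLRP3_12m minus APPPS1_12m (Mapt and Gm11661), against 6.18% of all genes called, and none was called in the other 7 Nlrp3 comparisons. Of 14 such genes near Itga5, Gpr84, which encodes a receptor for medium-chain fatty acids, was called higher in NLRP3_4m and in NLRP3_12m than in WT of the same age, Gm49482 was higher in NLRP3_12m, and Cbx5, Pde1b and Ppp1r1a were higher in APPPS1_NLRP3_12m than in APPPS1_12m; 0.398%, 1.59% and 6.18% of all genes were called in these. Near the other members, 1 of 42 genes by Itgax and 1 of 61 by Itgal were called in NLRP3_12m minus WT_12m, and 4 of 42 by Itgax, 3 of 61 by Itgal, 1 of 4 by Itgav, 1 of 6 by Itgb5 and 1 of 11 by Itga6 in APPPS1_NLRP3_12m minus APPPS1_12m. No gene near Itgb2, Itgb1 or Itga4 was called in any of the 8 comparisons. The regions by Itgax and Itgal share genes. All genes named here were named after their values were seen. Marker sums of other cell types differed between the 12-month groups too: 10 border-associated macrophage markers summed to 634 to 1090.5 CPM in WT_12m and 356 to 629 CPM in APPPS1_12m, and 12 endothelial markers to 512 to 811 and 301 to 532 CPM there, to 125 to 305 CPM in NLRP3_12m and to 113 to 238 CPM in APPPS1_NLRP3_12m. Their part in the differences of the members was not tested. The 15 homeostatic microglia markers summed to 53932 to 59134 CPM in WT_12m and 44492 to 49864 CPM in APPPS1_12m.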
